A study of Rattus norvegicus with 18 samples.

Results

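The receptors for prostaglandin E2 (Ptger1, Ptger2, Ptger3 and Ptger4), prostaglandin F2alpha (Ptgfr) and prostacyclin (Ptgir) were examined in rat ovarian follicles around ovulation. A probe set counted as a receptor probe set where a listed receptor was its single gene symbol in the platform annotation. This gave 8 probe sets for 5 of the 6 receptor genes, out of 31099 probe sets on the array, of which 20826 had 1 gene symbol. No probe set had Ptgir as its single symbol, so Ptgir was not analysed here. Ptger1, Ptger3 and Ptgfr had 2 probe sets each, and Ptger2 and Ptger4 had 1 each.

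Follicles of Crl:CD(SD) rats were cut from frozen ovary sections 8 micrometres thick by laser microdissection, 15 follicles in each phase per the labels, and their RNA was hybridized to 18 Affymetrix arrays. The 6 groups had 3 samples each. Indomethacin (IM), which blocks prostaglandin synthesis by the cyclooxygenases, was given by mouth at 4 mg/kg at 16:00 of proestrus. Unruptured follicles were then taken at 10:00 of estrus (IM UF), and peri-ovulatory follicles of other treated rats at 22:00 of proestrus (IM PeF). RU486 (RU), which blocks the receptors for progesterone and glucocorticoids, was given by mouth at 100 mg/kg at 10:00 of proestrus and gave RU UF and RU PeF at those 2 times. The controls without treatment were post-ovulatory follicles at 10:00 of estrus, called control PoF, and peri-ovulatory ones at 22:00 of proestrus, called control PeF. Only control follicles had ruptured by 10:00 of estrus, so an effect of a drug and an effect of failed rupture cannot be told apart at that time. The ages of the rats are not given in the labels. The labels state 3 animals per treatment group and time without tying samples to animals, so p-values measure the spread between these samples, which may be technical, and the number of arrays limits the precision.

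Prostaglandin receptors are G protein coupled receptors of the cell surface. The E2 receptors EP2 (Ptger2) and EP4 (Ptger4) and the prostacyclin receptor raise cyclic AMP, EP3 (Ptger3) mainly lowers it through inhibitory G proteins, and EP1 (Ptger1) and the F2alpha receptor FP (Ptgfr) raise calcium. In the ovary, prostaglandin E2 acting through EP2 is known from mice for cumulus expansion and fertilization, and prostaglandin F2alpha acting through FP is known in rodents for regression of the corpus luteum.

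The promoters of Ptger3 and Ptgfr are shown because these were the receptors above background on all 3 arrays of at least 1 group. Each sequence is from RefSeq, build GRCr8, and runs 5′ to 3′ from 250 bases before to 50 bases after the gene's start. All 6 receptors matched the promoter table. Capitals mark the GC box, GGGCGG on either strand.
Ptger3, chr2:249264832-249265131, plus strand: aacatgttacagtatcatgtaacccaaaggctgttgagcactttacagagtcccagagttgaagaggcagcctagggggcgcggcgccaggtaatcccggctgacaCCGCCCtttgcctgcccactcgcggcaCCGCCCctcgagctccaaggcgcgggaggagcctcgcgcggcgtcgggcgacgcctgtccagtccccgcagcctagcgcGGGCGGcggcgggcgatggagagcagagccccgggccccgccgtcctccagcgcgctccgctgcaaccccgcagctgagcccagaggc
Ptgfr, chr2:243425574-243425873, minus strand: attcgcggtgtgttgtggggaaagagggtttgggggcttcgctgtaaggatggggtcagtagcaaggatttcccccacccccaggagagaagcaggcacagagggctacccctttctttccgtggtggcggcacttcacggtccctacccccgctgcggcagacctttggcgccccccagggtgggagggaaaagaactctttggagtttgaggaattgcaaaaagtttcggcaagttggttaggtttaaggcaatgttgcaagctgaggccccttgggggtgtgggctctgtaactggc

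The Ptger3 window was 69.7% G and C and held 3 GC boxes. The Ptgfr window was 57.7% G and C and held none. At least 1 GC box stood in 33.1% of the 33469 promoters of the table. Neither window held TGACGTCA (the cyclic AMP response element, in 1.83% of promoters), its core TGACG, which lies within it (21.2%), AGAACA (a half-site of steroid hormone receptors, 20.7%), TGANTCA (AP-1, 7.33%) or CCAAT (37.5%), searched on both strands. A match is a description of these letters and not a binding site.

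Signals are the deposited linear probe set intensities, whose floor was 1. Background on an array was the brightest of 27 control probe sets without a spiked target, and it lay between 5.10 and 9.85. Array medians lay between 4.4 in replicate 3 of control PeF and 27.4 in replicate 3 of control PoF, so quantile normalization preceded every test. The 3 dimmest arrays were that control PeF array, IM UF replicate 2 and IM PeF replicate 2. Of the granulosa cell markers 8 of 10 were measured, and none of them was at background in any group. In samples of whole follicles, fewer cells of a type and less RNA per cell cannot be told apart.

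Most receptor probe sets were dim. Of the 8 probe sets, 5 were above background on at least 1 array, against 93.7% of all probe sets. Only 3 were above background on all 3 arrays of some group, against 68.6% of all. These were both probe sets of Ptger3 and the Ptgfr probe set 1369127_a_at. Ptger2 was at background on all 18 arrays. Counting a gene as present in a group where at least 1 of the 3 arrays was above background, 3 receptor genes were present in IM UF, 3 in RU UF, 3 in control PoF, 2 in IM PeF, 4 in RU PeF and 2 in control PeF. Ptger3 probe set 1376977_at alone was above its array's median on at least 3 arrays, the filter for the test, which 58.5% of all probe sets passed. It did so on 4 arrays, all 3 of IM PeF and replicate 1 of control PeF, so it was tested because it was bright in IM PeF. Its comparisons that involve IM PeF are therefore also given without a filter. The other 7 were tested in the fit without a filter.

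**Figure D1:**
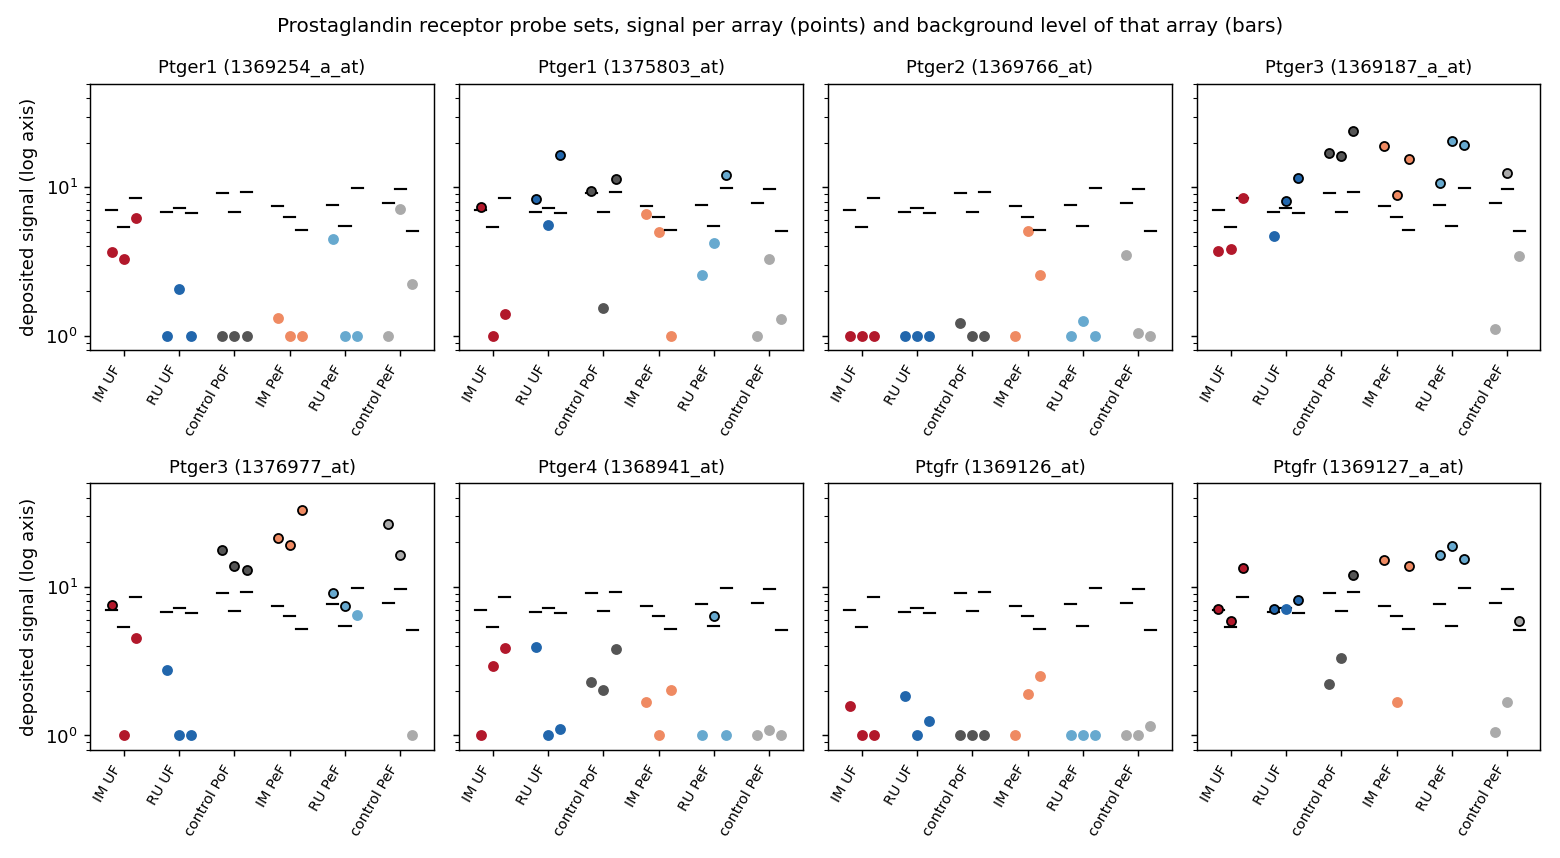
Deposited signal (log scale, floor 1) of the 8 receptor probe sets on every array, with 1 point per array for the 6 groups and each array's background level for comparison. Both Ptger3 probe sets and Ptgfr 1369127_a_at were above background on all 3 arrays of at least 1 group, while the Ptger2 points all lay at or below background.

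Ptger3, the receptor that lowers cyclic AMP, gave the one called difference of the receptors: it was lower in IM UF than in IM PeF. Probe set 1376977_at had signals of 7.59, 1 and 4.57 in IM UF, against 21.37, 19.24 and 32.95 in IM PeF. The groups did not overlap. It was above background on 1 of 3 IM UF arrays and on 3 of 3 IM PeF arrays. After normalization the difference on the scale of log2(signal + 2.79) was -2.28 ± 0.56 (SE) in the fit without a filter (limma, adjusted p = 0.00661; 95% interval -3.45 to -1.11), in which 17.6% of all probe sets were called. With the filter it had an adjusted p of 0.00521 (limma), where 33.3% were called, so 1 call is not a result particular to the receptors. Over 16 alternatives the difference lay between -2.52 and -1.13, the adjusted p (limma) between 1.68e-05 and 0.111, and the call was made in 15. All but those with no filter kept the filter that the probe set passed through IM PeF, so they do not test that choice. The difference was -1.13 with the pseudocount at the median of all values and -1.79 without the 3 dimmest arrays. The exception to the call was the use of signals as deposited together with no filter, an alternative chosen after seeing the data.

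The second Ptger3 probe set, 1369187_a_at, also had lower values in IM UF but did not pass the test. Its signals were 3.74, 3.87 and 8.46 in IM UF, none above background, against 18.93, 8.85 and 15.58 in IM PeF, all above background. The groups did not overlap. After normalization 3 of the 8 receptor probe sets did not overlap in this comparison, against 31.6% of all probe sets. The third, Ptger1 1369254_a_at, was higher in IM UF, by 1.01 on the log2 scale, and was at background in both groups. The signal of Ptger3 1369187_a_at was at least 1.64-fold lower in IM UF, with a log2 difference of -1.04 ± 0.48 (SE; limma without a filter, adjusted p = 0.159). Over the 18 samples the normalized values of the 2 Ptger3 probe sets had Pearson's r = 0.06, which is a description of these arrays. The annotation gives 1 symbol to both, and the sources used here do not say which transcripts each detects.

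Several cell markers also differed between IM UF and IM PeF, where 33.3% of all tested probe sets were called. The summed normalized signal of the 5 measured theca markers was 29.1 to 64.0 in IM UF and 167 to 263 in IM PeF. Of the 3 tested, 2 fell: Hhip, which binds hedgehog proteins, by 2.39 on the log2 scale (limma, adjusted p = 0.000312), and Cyp17a1, an enzyme of androgen synthesis (limma, adjusted p = 3.63e-05), which was at background in IM UF. The 8 smooth muscle and pericyte markers summed to 1213 to 1454 in IM UF and 413 to 512 in IM PeF, and 6 of 7 tested were higher. The 8 measured granulosa markers summed to 12710 to 17774 in IM UF and 14143 to 20561 in IM PeF. Of the 8 tested, 3 rose (Foxl2, Nr5a2 and Gja1) and 2 fell: Cyp19a1, the aromatase, by 4.39 and Inha, the inhibin alpha subunit, by 1.62 on the log2 scale (limma, adjusted p = 3.02e-06 and 4.30e-06). The 5 measured of 6 oocyte markers summed to 15.2 to 55.2 in IM UF and 43.7 to 261 in IM PeF. Of the 4 tested, 1 fell, Gdf9, a growth factor of the oocyte, by 2.16 on the log2 scale (limma, adjusted p = 0.0265), and 3 had an unadjusted p under 0.05, with a median of -1.94. Bmp15 was at background in both groups and Zp3 in IM UF. Of the 6 luteinizing cell markers tested 1 rose and 2 fell, and of the 8 endothelial markers tested 1 rose and 1 fell. None of the 8 leukocyte markers and none of the 2 platelet markers tested was called. The part of these cells in the Ptger3 difference was not tested. The Ptger3 difference was -2.52 to -1.93 when any 1 sample of either group was left out.

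In RU486-treated follicles at 10:00 of estrus, Ptger3 probe set 1376977_at was at or below background on all 3 arrays. It was 2.77, 1 and 1 in RU UF, against 17.76, 13.91 and 13.11 in control PoF, all above background. The groups did not overlap, as held for 2 of the 8 receptor probe sets and for 25.8% of all. The signal was at least 1.38-fold lower in RU UF, but the difference of -1.66 ± 0.57 (SE) did not pass the test (limma, adjusted p = 0.0885), in a comparison where 8.7% were called. It passed in 4 of 16 alternatives (limma, adjusted p = 0.00267 to 0.230). Probe set 1369187_a_at had 4.69, 8.03 and 11.48 in RU UF, against 17.14, 16.31 and 23.98 in control PoF. These also did not overlap, with a difference of -0.60 ± 0.48 (SE; limma, adjusted p = 0.682).

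In IM UF against the same control PoF samples, both Ptger3 probe sets were separated in the same direction without a call. Probe set 1376977_at, with the IM UF values given above, differed by -1.13 ± 0.57 (SE; limma, adjusted p = 0.761). Probe set 1369187_a_at differed by -0.90 ± 0.48 (SE; limma, adjusted p = 0.910), at least 1.49-fold. Of the 8 receptor probe sets 3 did not overlap between IM UF and control PoF, against 14.3% of all, and 0.033% of all tested probe sets were called. The third of these, Ptger1 1369254_a_at, differed in the opposite direction, by 1.04, and was at background in both groups. Both drug comparisons share the control PoF samples. Between IM UF and RU UF the difference of 1376977_at was 0.53 ± 0.57 (SE; limma, adjusted p = 0.679), in a comparison where 6.95% of probe sets were called. There 2 of the 8 receptor probe sets did not overlap, both of Ptger1, against 22.5% of all. These 2 differed in opposite directions, 1369254_a_at by 0.88 and 1375803_at by -1.27, and 1369254_a_at was above background on no array.

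At 22:00 of proestrus, Ptger3 probe set 1376977_at was 21.37, 19.24 and 32.95 in IM PeF, against 9.16, 7.45 and 6.50 in RU PeF. All 3 IM PeF values lay above all 3 RU PeF values. The groups did not overlap for 2 of the 8 receptor probe sets, against 18.4% of all. The difference of 1.55 ± 0.57 (SE) did not pass (limma, adjusted p = 0.149, with 5.23% of probe sets called), and it passed in 3 of 16 alternatives. Without a filter its adjusted p was 0.205 (limma), with 2.57% called. In control PeF this probe set was 26.50, 16.52 and 1, values that overlapped those of both drug groups. The control value of 1 was that of the dimmest array. IM PeF differed from control PeF by 1.21 ± 0.57 (SE; limma, adjusted p = 0.437 with the filter and 0.507 without it). RU PeF differed from control PeF by -0.33 ± 0.57 (SE; limma, adjusted p = 0.764). The first of these was 0.39 without control PeF replicate 3, 1.87 without control PeF replicate 1 and 0.25 without the 3 dimmest arrays, and the second was -1.15 and 0.33 without those same 2 control samples. No probe set was called between IM PeF and control PeF by limma, with 2074 of 18155 at an unadjusted p under 0.05, and 7.42% were called between RU PeF and control PeF. After normalization 1 of the 8 receptor probe sets did not overlap between IM PeF and control PeF, against 9.95% of all, and 0 of 8 between RU PeF and control PeF, against 18.7% of all.

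No difference was called for probe set 1369187_a_at at 22:00. It was 18.93, 8.85 and 15.58 in IM PeF, against 10.76, 20.39 and 19.35 in RU PeF. These values overlapped, with a difference of -0.11 ± 0.48 (SE; limma, adjusted p = 0.975), which was -0.33 to 0.07 when 1 sample was left out. In control PeF it was 1.11, 12.43 and 3.42. The IM PeF samples differed from those controls by 0.95 ± 0.48 (SE; limma, adjusted p = 0.530) and the RU PeF samples by 1.05 ± 0.48 (SE; limma, adjusted p = 0.264). On leaving out 1 sample these were 0.35 to 1.30 and 0.46 to 1.41.

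The other time comparisons gave no Ptger3 call. Between RU UF and RU PeF, probe set 1376977_at differed by -1.26 ± 0.57 (SE), at least 1.05-fold lower in RU UF (limma, adjusted p = 0.0916, with 38.8% of probe sets called). It passed in 4 of 16 alternatives. Of the 8 receptor probe sets 2 did not overlap there, against 39% of all. Between control PoF and control PeF it differed by 0.06 ± 0.57 (SE; limma, adjusted p = 0.941), while 39.6% of probe sets were called, and without the dimmest array the difference was -0.76. Probe set 1369187_a_at differed by -0.85 ± 0.48 (SE; limma, adjusted p = 0.250) between RU UF and RU PeF, and by 0.80 ± 0.48 (SE; limma, adjusted p = 0.268) between control PoF and control PeF. The control groups did not overlap for 2 of the 8 receptor probe sets, against 33.8% of all.

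The change of each drug's effect between the times was tested as an interaction. For 1376977_at the indomethacin effect at 10:00 minus that at 22:00 was -2.34 (limma, adjusted p = 0.468 and unadjusted p = 0.0100 with the filter, adjusted p = 0.545 without it). The RU486 effect at 10:00 minus that at 22:00 was -1.32 (limma, adjusted p = 0.404). Leaving out 1 sample gave -3.00 to -1.52 for the first and -1.98 to -0.50 for the second, with the ends without control PeF replicate 1 and without control PeF replicate 3. For 1369187_a_at these were -1.85 (limma, adjusted p = 0.568) and -1.66 (limma, adjusted p = 0.274). In the first interaction limma called no probe set of 18155, with 1641 at an unadjusted p under 0.05, and in the second 4.02% were called. Over its 11 comparisons 1376977_at had 6 unadjusted p values under 0.05 and 1 call. The 6 were IM PeF against control PeF, RU PeF and IM UF, RU UF against control PoF and RU PeF, and the indomethacin interaction. In that order 2074, 3139, 7755, 3808, 8561 and 1641 of 18155 probe sets had an unadjusted p under 0.05 (limma). All but the RU UF comparisons involve IM PeF, through which 1376977_at passed the filter.

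Ordered by the normalized mean, probe set 1376977_at was highest in IM PeF, at 4.92 ± 0.38 on the log2 scale (SD, n = 3 in each group). Control PoF followed at 3.77 ± 0.19, then control PeF at 3.71 ± 1.51, RU PeF at 3.37 ± 0.26, IM UF at 2.64 ± 0.62 and RU UF at 2.11 ± 0.33. IM PeF and control PoF did not overlap, and each other pair of neighbours in this order overlapped. For 1369187_a_at the order was RU PeF at 4.28 ± 0.41, IM PeF at 4.17 ± 0.15, control PoF at 4.03 ± 0.17, RU UF at 3.43 ± 0.48, control PeF at 3.22 ± 1.03 and IM UF at 3.13 ± 0.56 (SD, n = 3 each). Of those neighbours control PoF and RU UF alone did not overlap. In both orders the 2 unruptured groups lay below control PoF.

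**Figure D2:**
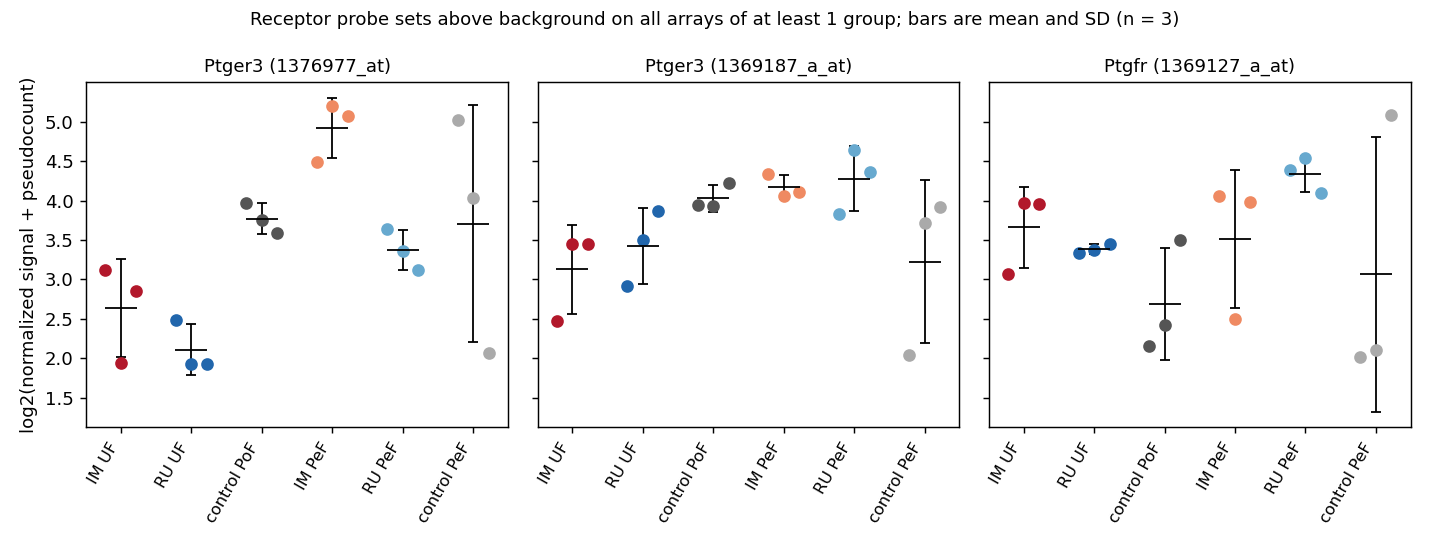
Normalized signal, log2(signal + 2.79), of the Ptger3 probe sets and of Ptgfr 1369127_a_at in each group, with points for the 3 arrays and the mean with its SD. Ptger3 1376977_at averaged 4.92 in IM PeF and 2.11 in RU UF, and control PeF had the widest spread for each probe set.

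Ptgfr, the receptor for prostaglandin F2alpha, was brightest in RU PeF, where probe set 1369127_a_at had signals of 16.36, 18.98 and 15.48. It had 1.06, 1.68 and 5.93 in control PeF, so the deposited values did not overlap. The normalized values did overlap, since replicate 3 of control PeF, the dimmest array, was scaled up. The log2 difference was 1.27 ± 0.65 (SE) and did not pass (limma without a filter, adjusted p = 0.335, with 3.19% called). Without a filter and without the 3 dimmest arrays, an alternative chosen after seeing the data, it was 2.28 ± 0.42 and passed (limma, adjusted p = 0.00489). The signals as deposited, again without a filter, gave 1.89 (limma, adjusted p = 0.508). It was 0.46 with the pseudocount at the median of all values, 0.75 without control PeF replicate 1 and 0.79 without control PeF replicate 2.

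The same RU PeF samples were separated from RU UF and from IM PeF for Ptgfr without a call. RU UF had 7.15, 7.09 and 8.14, all below the RU PeF values, with a difference of -0.95 ± 0.65 (SE; limma, adjusted p = 0.373). IM PeF had 15.20, 1.67 and 13.96, with a difference from RU PeF of -0.82 ± 0.65 (SE; limma, adjusted p = 0.711). IM UF had 7.16, 5.87 and 13.36 and control PoF had 2.22, 3.34 and 12.02, which overlapped (difference 0.97 ± 0.65, SE; limma, adjusted p = 0.953). RU UF differed from those controls by 0.69 ± 0.65 (SE; limma, adjusted p = 0.753). The time difference was 0.15 between IM UF and IM PeF (limma, adjusted p = 0.930) and -0.37 between control PoF and control PeF (limma, adjusted p = 0.756).

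Ptgfr by this probe set had the order RU PeF at 4.34 ± 0.23, IM UF at 3.66 ± 0.51, IM PeF at 3.51 ± 0.88, RU UF at 3.39 ± 0.058, control PeF at 3.07 ± 1.74 and control PoF at 2.69 ± 0.71 on the log2 scale (SD, n = 3 each). RU PeF and IM UF did not overlap, and the other neighbours overlapped. The second Ptgfr probe set, 1369126_at, gave signals of 1 to 2.52, was above background on none of 18 arrays and stood at the floor on 12. The 2 probe sets had r = 0.29 over the 18 samples.

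Ptger1, the calcium-raising E2 receptor, was above background on 6 of 18 arrays by probe set 1375803_at and on none by 1369254_a_at. Probe set 1375803_at had 7.36, 1 and 1.39 in IM UF, 8.31, 5.55 and 16.41 in RU UF, and 9.38, 1.54 and 11.41 in control PoF. At 22:00 it had 6.58, 5.01 and 1 in IM PeF, 2.58, 4.22 and 12.03 in RU PeF, and 1, 3.31 and 1.30 in control PeF. No group had all 3 arrays above background. After normalization the IM UF values lay below those of RU UF, with a difference of -1.27 ± 0.53 (SE; limma without a filter, adjusted p = 0.258). Probe set 1369254_a_at stood at the floor on 10 arrays, with a highest signal of 7.16. Its normalized IM UF values lay above those of RU UF, the opposite direction, by 0.88 ± 0.38 (SE; limma without a filter, adjusted p = 0.277).

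The cyclic AMP-raising E2 receptors were not detectable on nearly all arrays, which does not show that they were absent. Ptger2 stood at the floor on 12 of 18 arrays, with a highest signal of 5.04. Ptger4 was above background on 1 array, RU PeF replicate 2, with a signal of 6.40, and stood at the floor on 7. No comparison of the 7 probe sets other than 1376977_at was called by limma without a filter. Of their 77 tests 11 had an unadjusted p under 0.05, and the lowest adjusted p was 0.0733 (limma), for Ptger1 1369254_a_at between IM UF and IM PeF, where both groups were at background. Several of the 11 were of that same probe set, which was above background on no array. For comparison, the fit without a filter called 17.6% of all probe sets between IM UF and IM PeF, 21.1% between RU UF and RU PeF and 21.4% between control PoF and control PeF. It called 0.0129% between IM UF and control PoF, 3.99% between RU UF and control PoF, 2.57% between IM PeF and RU PeF, 3.16% between IM UF and RU UF and 1.66% for the RU486 interaction. Between IM PeF and control PeF and for the indomethacin interaction it called none, with 2989 and 2374 probe sets of 31042 at an unadjusted p under 0.05 (limma). Such probe sets numbered 9943 between control PoF and control PeF, 8650 between IM UF and IM PeF and 9516 between RU UF and RU PeF. They numbered 5298 between RU PeF and control PeF, 1811 between IM UF and control PoF and 4416 between RU UF and control PoF. Between IM PeF and RU PeF there were 3769, between IM UF and RU UF 4418, and for the RU486 interaction 4166.

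**Figure D3:**
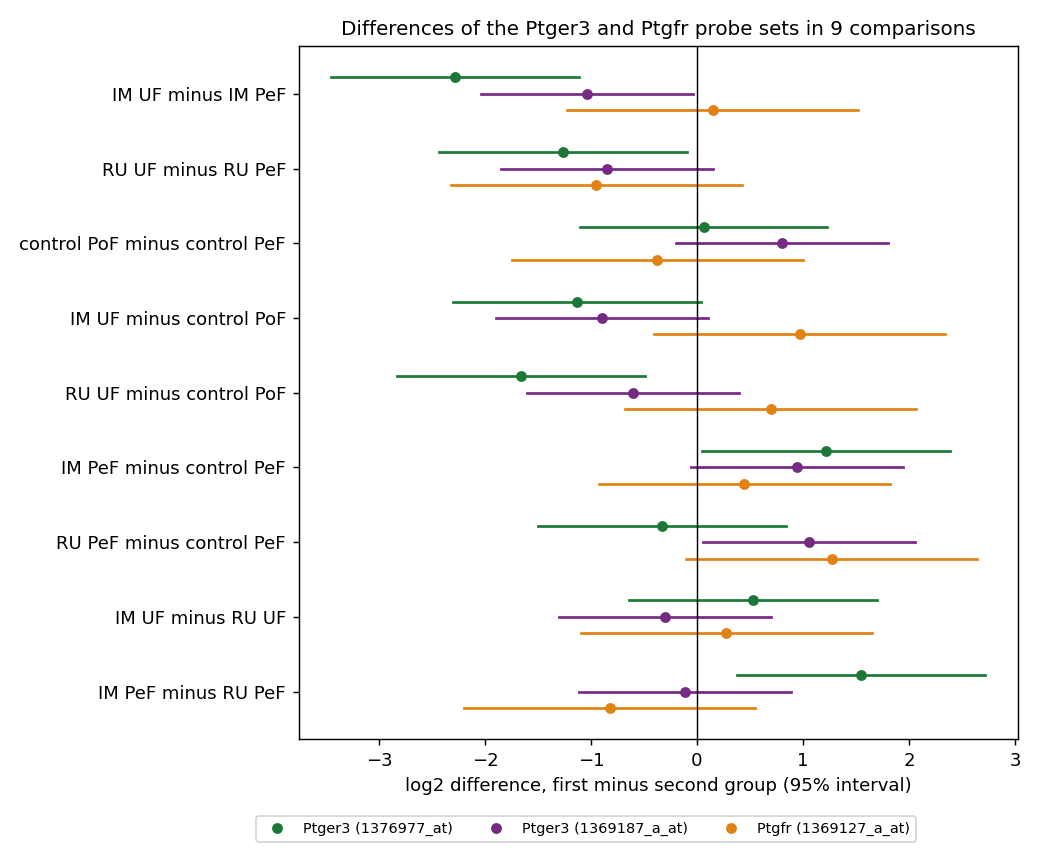
Log2 differences of the Ptger3 probe sets and of Ptgfr 1369127_a_at in the 9 comparisons of 2 groups, first group minus second, with 95% intervals from limma. The interval of Ptger3 1376977_at in IM UF minus IM PeF, -3.45 to -1.11, belongs to the one difference that was called.

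The genes whose pattern over the 18 samples was most like a receptor's were named from 10391 genes by Pearson's r, which rests on the same arrays and normalization for both genes. For Ptger3 1376977_at they were Epcam (r = 0.902), Rab3gap1 (0.867) and Txnip (0.857). For Ptger3 1369187_a_at they were Foxo4 (0.746), Gnai1 (0.727) and Slc25a22 (0.726). The 2 Ptger3 probe sets thus shared none of these 3. For Ptgfr 1369127_a_at they were Ascc2 (0.860), Baz1a (0.792) and Micall1 (0.770), and for Ptger1 1375803_at Gaa (0.807), Naif1 (0.689) and Fam110b (0.683). For Ptger4, which was above background on 1 array, they were Myo1f (0.734), Mark1 (0.633) and Tkfc (0.603).

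Of the related receptors and partners, Ptgfrn, which binds and inhibits the F2alpha receptor, was above background on all 18 arrays. It had 90.36, 46.19 and 68.91 in RU UF, against 194.49, 179.78 and 258.98 in control PoF, with no overlap. It fell by 0.91 ± 0.26 on the log2 scale (SE; limma, adjusted p = 0.0348). The call ended in Ptgfrn with the signals as deposited (limma, adjusted p = 0.485), with no filter (0.0535) and when 1 sample was left out in 5 of 6 ways. Tbxa2r, the thromboxane receptor, was above background on 3 arrays and Ptgdr2, a prostaglandin D2 receptor, on 1.

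Most of the G protein and second messenger genes through which these receptors signal passed the filter, while 1 of the 5 receptor genes with a probe set did. Of 32 listed genes, 28 had a probe set and 23 were tested. In RU UF against control PoF 3 rose and 1 fell (limma), with a median log2 difference of -0.09 over the list and -0.016 over all tested probe sets, of which 8.7% were called. Adcy6, an adenylyl cyclase, differed by 0.89 (limma, adjusted p = 0.00228), Prkar2b, a regulatory subunit of protein kinase A, by 1.40 (limma, adjusted p = 0.00276) and Grk6, a kinase that desensitizes receptors, by 0.75 (limma, adjusted p = 0.00686). Gnai1, an inhibitory G protein subunit of the kind that EP3 couples to, fell by 1.19 on the log2 scale (limma, adjusted p = 0.0465). When 1 sample was left out Gnai1 was called in 1 of 6 ways, Grk6 in 5 of 6 and Adcy6 and Prkar2b in all 6, so that 3 genes were called each time. Without a filter Gnai1 was not called (limma, adjusted p = 0.0852). With the arrays scaled to the same median Adcy6 and Grk6 were not called (limma, adjusted p = 0.112 and 0.208). Gnai1 and Prkar2b were called in that setting (limma, adjusted p = 0.0457 and 0.0250). The second Adcy6 probe set differed by 0.13 (limma, adjusted p = 0.928). Between IM UF and control PoF limma called none of the 23, with 3 at an unadjusted p under 0.05, where it called 6 of 18155 probe sets.

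At 22:00 Gna12, a G protein alpha subunit, fell in RU PeF against control PeF, by 0.89 on the log2 scale (limma, adjusted p = 0.00539), the only one of 23 called. The count was 1 or 2 when 1 sample was left out. The second Gna12 probe set differed by -0.46 (limma, adjusted p = 0.356). In IM PeF against control PeF limma called none of them, with 2 at an unadjusted p under 0.05. Between control PoF and control PeF 5 rose and 4 fell, against 39.6% of all tested probe sets called. Itpr1, the calcium channel opened by inositol trisphosphate, differed by 1.44 (limma, adjusted p = 2.72e-05), the cyclase Adcy3 by 1.97 (limma, adjusted p = 0.000147), the protein kinase A subunit Prkaca by 1.45 (limma, adjusted p = 0.000473) and Gna12 by -0.93 (limma, adjusted p = 0.000507). The second Gna12 probe set differed by -0.55 between these control groups and was not called (limma, adjusted p = 0.142). In IM UF against IM PeF 7 rose and 6 fell, and in RU UF against RU PeF 8 rose and 4 fell, in comparisons where 33.3% and 38.8% of all tested probe sets were called. With the signals as deposited, 9 of the 23 were called between control PoF and control PeF and 0 in each other comparison, so every call of this list that involves a drug ended there.

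For the 16 genes chosen for the supply of prostaglandin ligands, each gene with several probe sets is represented by the brightest that passed the filter, and all 16 were tested. In RU UF against control PoF 1 rose and 2 fell (limma), with a median log2 difference of -0.09 over the list, where 8.7% of all tested probe sets were called. In IM UF against control PoF limma called none, and none had an unadjusted p under 0.05, where 0.033% of all tested probe sets were called. Hpgd, the dehydrogenase that inactivates prostaglandins, fell by 1.58 on the log2 scale in RU UF (limma, adjusted p = 0.00315), and with the deposited signals the Hpgd difference did not pass (limma, adjusted p = 0.109). Between IM UF and IM PeF, the comparison with the Ptger3 call, 5 rose and 4 fell, where 33.3% of all tested probe sets were called. Among those that fell was Ptgs2, the inducible cyclooxygenase, at -7.14 (limma, adjusted p = 4.24e-06). Ptgs2 also fell between control PoF and control PeF, at -7.68 (limma, adjusted p = 1.83e-06), and between RU UF and RU PeF, at -8.61 (limma, adjusted p = 4.32e-07). Ptges, the inducible prostaglandin E synthase, had 2 probe sets that gave different values. The brighter one differed by 1.25 in IM UF against IM PeF (limma, adjusted p = 0.0379), and the second by 0.57 (limma, adjusted p = 0.459). The call of the first was made in 8 of 16 alternatives, with values of 0.71 to 2.28, and ended without a filter (limma, adjusted p = 0.0609). In RU PeF the brighter probe set was at background on all 3 arrays, and its signal was at least 2.56-fold lower than in control PeF (limma, adjusted p = 0.0178). That call ended with the deposited signals (limma, adjusted p = 0.50), with the larger pseudocount (0.0720), with only the compared groups (0.140) and without any 1 of control PeF replicate 3, RU PeF replicate 2 and RU PeF replicate 3 (0.0506 to 0.0836). The second Ptges probe set was above background on 2 of 3 RU PeF arrays and 1 of 3 control PeF arrays, and it differed by 0.026 (limma, adjusted p = 0.983).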

How the data were processed

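RNA of 18 follicle samples in 6 groups of 3 was measured on Affymetrix arrays. The deposited values are linear probe set intensities, none below 1. The submitters' processing notes name MAS5; its version and scaling, and the genome build, are not given here. The receptors, the gene lists and the tests were chosen with earlier results of these data known.

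The deposited intensities were quantile normalized, and log2 was taken after adding 2.79, which is the 20th percentile of all signals. The 57 control probe sets were left out. The filter kept 18155 probe sets, those brighter than the median of their array on 3 or more of the 18 arrays, and the fit without it had 31042. A probe set was at background in a group where all 3 arrays lay at or below the brightest of 27 control probe sets without a spiked target. Of the probe sets, 20826 had 1 symbol, 436 several and 9780 none, and 20758 symbols were matched by gene ID. The annotation can be old.

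The fit used limma 3.58.1 (R 4.3.3) with a mean for each group, a trend of the variance and 12 residual degrees of freedom. P-values were adjusted by Benjamini-Hochberg over all probe sets tested and called at 0.05. The fit was tested on simulated data. An exact two-sided permutation test of 3 against 3 cannot go below 0.1 and was not used. For genes with several probe sets, the brightest by mean of those in the fit stood for the gene in counts. With the filter this was 1376977_at for Ptger3, since 1369187_a_at did not pass it. Genes named were all receptors, the related receptors and Ptgfrn, Ptgs2, Ptges and Hpgd, up to 4 called members with the smallest adjusted p of the G protein list in 3 comparisons of controls and RU486, and the 3 genes most like each receptor. The marker genes named, such as Hhip and Cyp17a1, were chosen after their values were seen. A fold given as "at least" sets the brighter group against the background bound of the dim group. It is a bound on the observed means and does not include the sampling error. Alternatives were signals as deposited, median scaling, a larger pseudocount, no filter, only the groups compared, array weights, no dim arrays, a replicate block and leaving out each sample. Replicate numbers were not used to pair the samples. Of 27 same-numbered pairs 1 had a correlation over 0.1, which cannot exclude a pairing that affects few genes. The plots were made in Python 3.11.15 with matplotlib 3.10.9.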

Additional observations from a re-analysis of the deposited data

Results flagged for a closer look

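For 2 of the 16 genes of ligand supply the RU486 effect differed between the times by an interaction test over all probe sets, for Ptges by 1 of its 2 probe sets. In that interaction 4.02% of all tested probe sets were called. For Ptges, the inducible prostaglandin E synthase, by its brighter probe set, the RU486 effect at 10:00 of estrus minus that at 22:00 of proestrus was 2.94 ± 0.63 on the log2 scale (SE; limma, adjusted p = 0.0131). Its signals were 141.87, 155.94 and 116.31 in RU UF, against 108.58, 99.12 and 102.22 in control PoF. At 22:00 they were 6.01, 5.06 and 3.24 in RU PeF, where that probe set was at background on all 3 arrays, against 20.66, 15.57 and 7.03 in control PeF. With the signals as deposited the Ptges interaction was 1.51 and did not pass (limma, adjusted p = 0.274). By the second Ptges probe set the interaction had the opposite sign, -0.46 ± 0.78 (SE; limma without a filter, adjusted p = 0.856), and RU PeF was above background on 2 of 3 arrays. For Hpgd, which inactivates prostaglandins, the same interaction was -2.18 ± 0.44 (SE; limma, adjusted p = 0.00884), and by its second probe set it was -3.34 (limma, adjusted p = 0.00286). Its signals were 433.2, 249.65 and 381.51 in RU UF, against 1695.41, 1190.68 and 2609.97 in control PoF. At 22:00 they were 2355.02, 2037.57 and 1882.23 in RU PeF, against 586.63, 2178.31 and 296.24 in control PeF. The Hpgd interaction with the signals as deposited was -3.84, which passed with the filter (limma, adjusted p = 0.0427) and did not pass without it (0.172).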

How the results depend on the processing

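The count of receptor genes called was 1 between IM UF and IM PeF and 0 in the other 10 comparisons. It became 0 for IM UF against IM PeF with no filter, with no filter and without the 3 dimmest arrays, and with no filter and signals as deposited, because 1369187_a_at, the brighter probe set by mean there, then stood for Ptger3. Probe set 1376977_at itself was called in the first 2 of these settings. It became 1 with array weights for IM PeF against control PeF, RU UF against control PoF, RU UF against RU PeF, IM PeF against RU PeF and the indomethacin interaction. It also became 1 for RU UF against control PoF with only the compared groups in the fit and without the 3 dimmest arrays, for RU UF against RU PeF with median scaling and without the 3 dimmest arrays, and for IM PeF against RU PeF with the pseudocount at the median and with only the compared groups. With no filter and without the 3 dimmest arrays it was 1 (Ptgfr) for RU PeF against control PeF. The last setting and the one joining no filter with deposited signals were chosen after seeing the data. The Ptger3 (1376977_at) difference of control PoF minus control PeF turned negative with median scaling (-0.22), the pseudocount at the median (-0.092), array weights (-0.32), and without the 3 dimmest arrays, with or without the filter (-0.76), and leaving out 1 sample gave -0.76 to 0.72, with -0.04 without control PoF replicate 1 and -0.76 without control PeF replicate 3. That of RU PeF minus control PeF lay between -1.15 and 0.33 on leaving out 1 sample, and was 0.33 without control PeF replicate 1. Receptor genes present numbered 1 in IM UF (main value 3), 2 in RU PeF (4) and 1 in control PeF (2) where 2 of 3 arrays had to be above background. With the array median as background they numbered 0 in IM UF, 0 in RU UF and 0 in control PoF (3 each), 1 in IM PeF (2) and 2 in RU PeF (4). Leaving out 1 sample gave 1 to 3 in IM UF, 3 in RU UF, 2 to 3 in control PoF, 2 in IM PeF, 3 to 4 in RU PeF and 1 to 2 in control PeF. The replicate block left the count at 1 for IM UF against IM PeF, where Ptger3 1376977_at differed by -2.28 (limma, adjusted p = 0.00549), and at 0 elsewhere, so it changed no receptor call. Receptors near background are limited by their low signal over background.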
